A study of Mus musculus with 8 samples.

Results

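The genes followed here encode the secreted and membrane-bound metalloproteinases that cut the extracellular matrix, together with their inhibitors. They were taken as every gene whose symbol in the platform annotation is Mmp, Timp or Adamts followed by a number, or an Adamtsl gene, with 1 probe set per gene, that of highest mean over the 8 arrays. This rule gave 42 of the 18193 named genes on the array: 18 Mmp, 4 Timp, 15 Adamts and 5 Adamtsl genes. Of these, 33 passed a filter that left out the lowest 25 percent of genes by mean level, and these 33 were tested. They comprised 13 Mmp, all 4 Timp, 11 Adamts and all 5 Adamtsl genes. The rule used no measured difference between groups.

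The samples were fibroblasts taken from mouse embryos of strain C57BL6/J at day 14.5 of gestation. Cells came from Hif-p4h-1-/- (knockout) or Hif-p4h-1+/+ (wild type) mice, and each genotype was studied in hypoxia and in normoxia, with 2 arrays for each of the 4 groups. One array of each group is labelled as a 2nd one, and these 4 arrays are called the second set. The sources used here do not say what the second set stands for, nor the oxygen level, the length of exposure or how many embryos lie behind each array. A p-value therefore covers only array-to-array spread, part of which may be technical. Hif-p4h-1 is the protein of Egln2, a prolyl hydroxylase that marks hypoxia-inducible factor (HIF) for breakdown when oxygen is present.

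Matrix metalloproteinases (MMPs) are zinc enzymes made as inactive precursors, whose propeptide has to be displaced before they cut collagens, gelatin, proteoglycans or elastin. Tissue inhibitors of metalloproteinases (TIMPs) bind and block the active site. ADAMTS enzymes are secreted relatives with thrombospondin repeats, and several of them, the aggrecanases, cut aggrecan and versican, while ADAMTS-like proteins lack the protease domain and bind microfibrils. Fibroblasts are a main source of MMP2, MMP14 and TIMPs in connective tissue, and transcription factor AP-1 is a well-known activator of the collagenase and stromelysin genes.

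The labels and the arrays were checked first. Egln2 read 8.66 and 8.85 in hypoxic knockout, 8.0 and 8.34 in normoxic knockout, 8.95 and 9.13 in hypoxic wild type and 8.84 and 9.07 in normoxic wild type (log2 values, first and second set), so it was lower in the knockout in all 4 pairs of arrays of the same set and condition, with signal remaining. Bnip3, a HIF target, read between 12.87 and 13.14 in the hypoxic arrays, against 8.86 to 10.11 in the normoxic arrays. The array medians lay between 5.01 and 5.12. The summed level of 12 fibroblast markers lay between 16.53 and 16.76 on the log2 scale in the 8 arrays. Such a sum follows its strongest genes, and single markers varied more. Lum read between 5.46 and 9.69. Between the sets 6 of the 12 were called higher in the second and 2 lower, beside 25.4% and 20.7% of all genes. Mmp2 and Timp1, which mark matrix-remodelling fibroblasts, read at least 9.18 and at least 12.63 in every array, against a filter limit of 4.17. The arrays of a set deviated together, so the set is a term in the fit.

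Mmp genes on chromosome 9 stand side by side. In the RefSeq table for GRCm38.p6, 10 protein-coding genes follow each other there without another between them: Mmp13, Mmp12, Mmp1b, Mmp3, Mmp1a, Mmp10, Mmp8, Mmp27, Mmp20 and Mmp7. Of these, 9 are measured members, 4 of which passed the filter (Mmp13, Mmp12, Mmp3 and Mmp10). Adamts1 and Adamts5 are neighbours on chromosome 16, and Adamts15 and Adamts8 on chromosome 9. RefSeq promoter windows of 300 bases (250 before to 50 after the gene start, GRCm38.p6) were found for 27 of the members, and were searched on both strands for TGANTCA, the sequence AP-1 prefers, and for ACGTG and GCGTG, the cores that HIF prefers. TGANTCA was present in the windows of 8 of the 9 genes of the chromosome 9 run that have one, and in those of 0 of the 18 other members. Among these matches, that of Mmp20 is TGAATCA, while the others are TGAGTCA or TGACTCA. Over all 32851 windows of that length TGANTCA was present in 7.81%. Neighbouring Mmp genes are copies of one another by descent, so their promoters are not independent. The bases from 100 to 21 before the start of the 4 tested genes of the run are shown because these genes had the 4 highest hypoxia estimates among the tested members, and the capitals mark TGANTCA.
Mmp13 (chr9:7272414-7272493, plus strand): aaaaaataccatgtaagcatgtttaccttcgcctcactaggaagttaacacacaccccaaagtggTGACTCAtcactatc
Mmp12 (chr9:7347274-7347353, plus strand): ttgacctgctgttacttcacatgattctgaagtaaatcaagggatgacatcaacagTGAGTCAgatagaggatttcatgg
Mmp3 (chr9:7445722-7445801, plus strand): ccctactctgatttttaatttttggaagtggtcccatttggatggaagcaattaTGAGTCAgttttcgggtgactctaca
Mmp10 (chr9:7502242-7502321, plus strand): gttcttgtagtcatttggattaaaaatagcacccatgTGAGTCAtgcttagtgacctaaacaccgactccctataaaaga
In these 4 windows the match begins 35, 44, 46 and 63 bases before the start of Mmp13, Mmp12, Mmp3 and Mmp10, and a further start of Mmp12 has none. A match describes the letters only and says nothing of binding.

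Of the 6 members called lower in hypoxia, promoter windows were matched for Adamts1 and Adamts12. This pair was also called lower in each genotype taken alone. Their 250 bases before the start are shown with GCGTG in capitals, which occurs in 32.4% of all windows. Neither window holds TGANTCA or ACGTG.
Adamts1 (chr16:85803114-85803363, minus strand): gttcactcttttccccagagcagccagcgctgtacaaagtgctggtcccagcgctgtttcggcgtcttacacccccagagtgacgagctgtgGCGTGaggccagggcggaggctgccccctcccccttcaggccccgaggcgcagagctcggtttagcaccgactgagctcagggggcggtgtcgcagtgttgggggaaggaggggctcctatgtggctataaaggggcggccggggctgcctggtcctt
Adamts12 (chr15:11064523-11064772, plus strand): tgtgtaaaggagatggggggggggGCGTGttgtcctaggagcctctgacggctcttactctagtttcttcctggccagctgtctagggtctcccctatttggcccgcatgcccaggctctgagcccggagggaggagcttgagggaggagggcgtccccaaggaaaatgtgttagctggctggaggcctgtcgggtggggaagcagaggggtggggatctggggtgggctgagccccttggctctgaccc

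The first question was what hypoxia changes among these genes. Over both genotypes, 5 secreted ADAMTS proteases and the gelatinase Mmp2 fell and the metalloproteinases Mmp10 and Mmp16 rose, while no Timp and no Adamtsl gene passed the test. The falls were modest, between 1.27-fold and 1.87-fold. Those of Adamts4 and Adamts5 depend on the probe set, as described below. In all, 8 of the 33 tested members were called, 6 lower and 2 higher, at a Benjamini-Hochberg adjusted p under 0.05 in limma's fit over all 13647 genes tested. That is 24.2% of the members, against 28.7% of all genes (15.2% lower and 13.6% higher), so the members were not called more often than genes at large. Their median difference was 0.04 on the log2 scale, against 0.01 over all genes. By family, 5 of the 11 tested Adamts genes fell and none rose, and of the 13 Mmp genes 1 fell and 2 rose. All 8 called members moved the same way in all 4 pairs of arrays of one set and genotype. The calls rest on these same differences, so this agreement is no separate support. Of the 25 members not called, 4 rose and 2 fell in all 4 pairs. In a fit without the set as a block, 0 members were called, and the share of all genes in that fit is not given here. Each difference below is hypoxia minus normoxia over both genotypes, with the standard error of the fit and n = 4 arrays each.

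Adamts12, a secreted protease that cuts cartilage oligomeric matrix protein, had the largest fall among the members. In knockout cells it read 8.29 and 8.67 in hypoxia, against 9.14 and 9.71 in normoxia. In wild-type cells it read 7.71 and 8.75 in hypoxia, against 8.62 and 9.56 in normoxia. Within a set every hypoxic array was below both normoxic ones, whereas across the sets the conditions overlapped, since the second set was higher. The difference was -0.90 ± 0.11 (adjusted p = 0.00102), with -0.95 in knockout (adjusted p = 0.0121) and -0.86 in wild type (adjusted p = 0.01).

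Adamts1 and Adamts5, the neighbours on chromosome 16, encode aggrecanases. Adamts1 read 10.22 and 9.77 in hypoxic knockout, against 10.71 and 10.40 in normoxic knockout. In wild type it read 10.06 and 9.44 in hypoxia, against 10.29 and 10.19 in normoxia. It fell in both genotypes, with a difference of -0.56 ± 0.12 in knockout (adjusted p = 0.0239) and of -0.49 ± 0.12 in wild type (adjusted p = 0.0261). The difference over both was -0.52 ± 0.082 (adjusted p = 0.00269). Adamts5 read 9.86 and 9.57 in hypoxic knockout, against 10.67 and 10.12 in normoxic knockout. Wild-type cells gave 9.46 and 9.18 in hypoxia, against 9.68 and 9.83 in normoxia. The hypoxic arrays were lower within each genotype, and the hypoxic knockout overlapped the normoxic wild type. By this probe set Adamts5 fell, with -0.56 ± 0.10 over both (adjusted p = 0.00499) and -0.68 in knockout (adjusted p = 0.0246). The difference of -0.43 in wild type was not called (adjusted p = 0.0744). Of its stronger further probe sets, that of mean 9.79 gave 0.09 over both genotypes and that of mean 8.16 gave -0.52. Their limma adjusted p over all named probe sets was 0.652 and 0.0141.

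Adamts4, a further aggrecanase, read 7.24 and 7.85 in hypoxic knockout, against 7.75 and 8.22 in normoxic knockout. The wild-type arrays read 7.42 and 8.14 in hypoxia, against 7.78 and 8.43 in normoxia. By the probe set used it fell by 0.38 ± 0.074 over both genotypes (adjusted p = 0.00674). Adamts6, a relative of the microfibril-binding protease Adamts10, read 6.79 and 7.77 in hypoxic knockout, against 7.44 and 8.31 in normoxic knockout. Its wild-type values were 6.77 and 7.96 in hypoxia, against 7.10 and 8.35 in normoxia. It fell by 0.48 ± 0.089 over both (adjusted p = 0.00545). For both genes the second set was higher than the first in every group, and the fall was seen inside each set.

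Mmp2, the gelatinase that MMP14 and TIMP2 together activate at the cell surface, read 9.87 and 9.56 in hypoxic knockout, against 10.11 and 9.77 in normoxic knockout. In wild type the values were 9.18 and 9.40 in hypoxia, against 9.77 and 9.74 in normoxia. It fell by 0.35 ± 0.095 over both genotypes (adjusted p = 0.0272). This call rests on single arrays, since it was lost in 5 of the 8 fits that left out 1 array: without wild-type normoxia replicate 1 (-0.37, adjusted p = 0.0637) or 2 (-0.32, adjusted p = 0.099), without knockout normoxia replicate 1 (-0.27, adjusted p = 0.12), without knockout hypoxia replicate 2 (-0.28, adjusted p = 0.113) and without wild-type hypoxia replicate 1 (-0.23, adjusted p = 0.0856).

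Mmp16, a membrane-anchored metalloproteinase, was the only tested member whose 4 hypoxic arrays all lay above its 4 normoxic arrays, as 7.09% of all genes did, and no member had all 4 below (8.2% of all genes). It read 7.58 and 7.81 in hypoxic knockout and 7.4 and 7.5 in hypoxic wild type, against 7.36 and 7.38 in normoxic knockout and 6.98 and 7.04 in normoxic wild type. It rose by 0.38 ± 0.077 (adjusted p = 0.00791). Mmp10, a stromelysin, read 6.41 and 7.07 in hypoxic knockout, against 5.75 and 6.45 in normoxic knockout. For wild type it had 7.02 and 6.99 in hypoxia, against 6.35 and 6.48 in normoxia. It rose by 0.61 ± 0.14 (adjusted p = 0.012), with rises of 0.51 to 0.67 in the 4 pairs. Its call was lost without knockout normoxia replicate 1 (0.50, adjusted p = 0.056), wild-type normoxia replicate 2 (0.54, adjusted p = 0.0537) or knockout hypoxia replicate 2 (0.52, adjusted p = 0.0584). The other 6 called members kept their call in each of the 8 fits without 1 array.

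**Figure D1:**
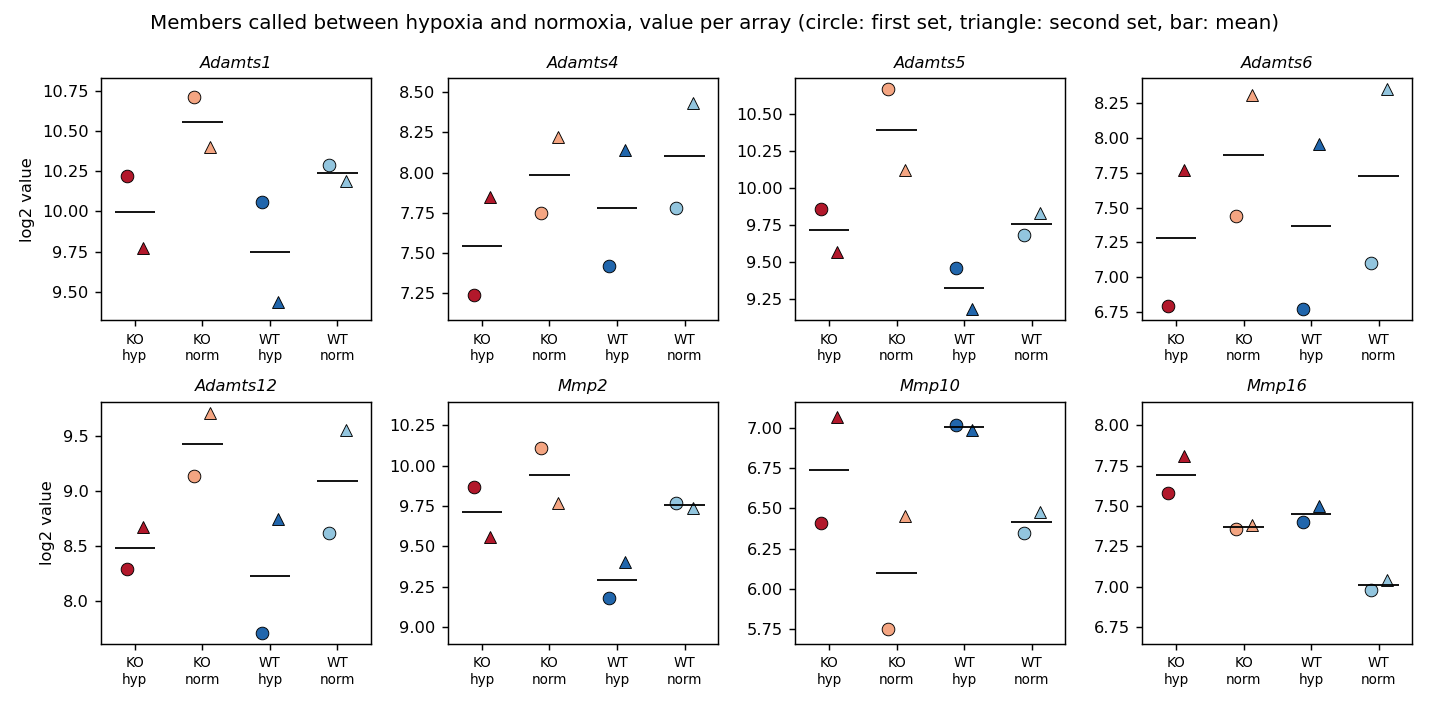
Log2 expression value (y axis) of the 8 members called between hypoxia and normoxia, by group (x axis: knockout in hypoxia and normoxia, then wild type in hypoxia and normoxia). Circles are first-set arrays, triangles second-set arrays and bars the mean of the 2 arrays; in Mmp16 the 4 hypoxic arrays lie above all normoxic ones, while in Adamts6 and Adamts12 the sets lie apart and each falls.

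The other tested genes of the chromosome 9 run, Mmp13, Mmp3 and Mmp12, had positive estimates that did not pass. Mmp13, the main rodent interstitial collagenase, read 6.54 and 7.04 in hypoxic knockout, against 5.39 and 6.57 in normoxic knockout. Wild-type arrays gave 7.65 and 6.67 in hypoxia, against 5.89 and 6.50 in normoxia. Its difference was 0.89 ± 0.29 (adjusted p = 0.0517), and it was 0.47 in knockout and 0.17 in wild type in the second set, against 1.15 and 1.76 in the first. Mmp3, a stromelysin, differed by 0.47 ± 0.27 (adjusted p = 0.237), with 1 of its 4 pairs negative. Mmp12, the macrophage elastase, differed by 0.74 ± 0.30 (adjusted p = 0.107), with 4 of 4 pairs positive. Of the 25 members not called, estimates ran from -0.51 for Adamtsl1 to 0.89 for Mmp13.

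No inhibitor passed the test for oxygen by the probe sets used. Timp1 read 13.03 and 13.53 in hypoxic knockout, against 12.93 and 13.49 in normoxic knockout. The values in wild type were 12.72 and 13.73 in hypoxia, against 12.63 and 13.61 in normoxia. Its 4 pairs differed by 0.04 to 0.12, and the estimate was 0.09 ± 0.089 (adjusted p = 0.519). Timp2 differed by -0.07 ± 0.063, Timp3, the TIMP that stays bound to matrix, by -0.02 ± 0.12 and Timp4 by 0.06 ± 0.12 (adjusted p = 0.48, 0.928 and 0.765). Mmp14, the membrane enzyme that activates MMP2, differed by 0.06 ± 0.047 (adjusted p = 0.391).

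**Figure D2:**
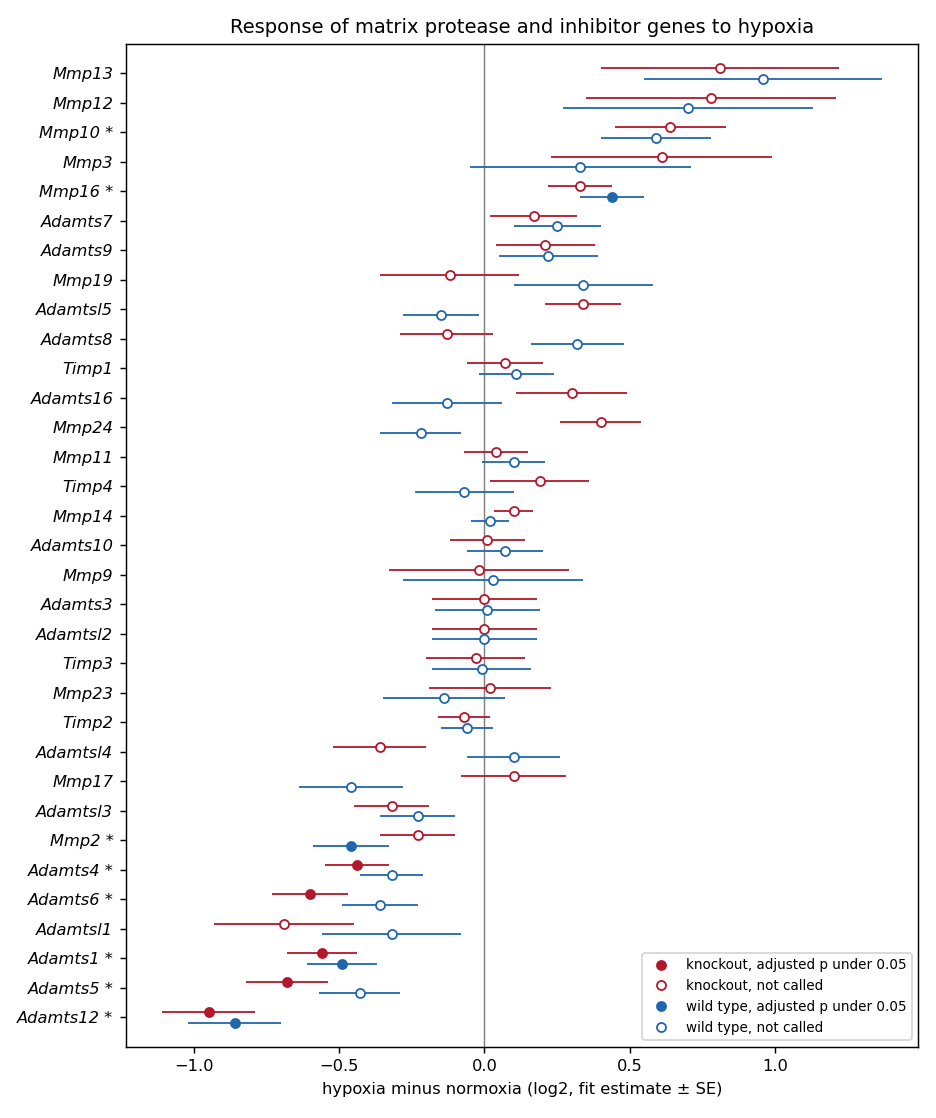
Hypoxia minus normoxia (x axis, log2, limma estimate ± SE) for the 33 tested members, in knockout (red, upper of each pair) and wild type (blue). Filled points have an adjusted p under 0.05 and an asterisk marks the 8 members called over both genotypes; Adamts12 lies lowest, at -0.95 and -0.86.

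By genotype, 5 members were called in knockout (Adamts1, Adamts4, Adamts5, Adamts6 and Adamts12, all lower) and 4 in wild type (Adamts1, Adamts12 and Mmp2 lower, Mmp16 higher). The share was 15.2% of the 33 in knockout, against 10.1% of all genes (5.13% lower, 4.98% higher). It was 12.1% in wild type, against 16.4% of all genes (8.85% lower, 7.54% higher). No member passed the test of the difference between the responses of the genotypes, nor did any other gene (0% called by limma), and 2 of 33 members had an unadjusted p under 0.05 there, as did 2.41% of all genes, so none of these responses is shown to differ by genotype. The counts rest on few arrays, and those that follow lack the share of all genes in the same fit. The knockout count of 5 was 2 without knockout hypoxia replicate 1 and 0 without any one of the other 3 knockout arrays. The wild-type count of 4 was 1 without wild-type hypoxia replicate 1, 0 without wild-type normoxia replicate 2, and 2 without either normoxic knockout array.

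Several genes have more than 1 probe set, and these did not always show the same difference. For 21 members a further 36 probe sets exist, and each was tested on its own over all 34945 named probe sets, of which 19.8% were called (9.76% higher, 10.1% lower). Of the 36, 6 were higher in hypoxia and 3 lower. Between the sets 12 were higher in the second and 1 lower, where 32% of named probe sets were called (16.7% higher, 15.3% lower). Mmp2 fell by both of its probe sets (-0.35 and -0.39), and so did Adamts6 (-0.48 and -1.04, adjusted p = 0.00669 and 0.003). Mmp16 had positive estimates by all 4 of its probe sets (0.35 to 0.96), 3 of them called. For Adamts5, the probe set used (mean 9.80) and that of mean 8.16 gave -0.56 and -0.52, both called, but that of mean 9.79 gave 0.09 (adjusted p = 0.652). For Adamts4 the weaker probe set gave 0.01 (adjusted p = 0.958). The falls of Adamts4 and Adamts5 thus depend on the probe set. With the mean of all probe sets of a gene, the differences were -0.24 for Adamts5 and -0.19 for Adamts4, neither called (adjusted p = 0.108 and 0.0798), and -0.53 for Adamts12, -0.76 for Adamts6 and 0.64 for Mmp16, all called.

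Some weaker probe sets of Timp2, Timp3 and Mmp14 rose where the strongest ones were not called. For Timp2, the probe set of mean 9.99 read 10.10 and 10.66 in hypoxic knockout and 9.87 and 10.57 in hypoxic wild type, against 9.51 and 10.22 in normoxic knockout and 8.93 and 10.06 in normoxic wild type. It rose by 0.62 ± 0.089 (adjusted p = 0.0019), and that of mean 7.06 by 0.94 ± 0.23 (adjusted p = 0.0215), while its other further probe sets gave -0.12, 0.08 and 0.01. Likewise the Timp3 probe set of mean 8.40 rose by 0.87 ± 0.16 (adjusted p = 0.0057), while its others gave 0.35 and 0.12, and the Mmp14 probe set of mean 7.64 rose by 0.55 ± 0.092 (adjusted p = 0.00378). All 6 further probe sets that rose in hypoxia were also higher in the second set than in the first. The gap of the 3′ over the 5′ control probe set, a measure of RNA quality, was higher in hypoxia, as they were, and lower in the second set, where they were higher. In hypoxia the Actb gap exceeded its normoxic partner by 0.10 to 0.17 in each of the 4 pairs, and the Gapdh gap did so by 0.04 to 0.33. The gaps averaged 0.39 (Actb) and 0.30 (Gapdh) in the second set, against 0.61 and 0.40 in the first. Their part in the probe set differences was not tested. Where each probe set lies along its transcript was not analysed here.

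**Figure D3:**
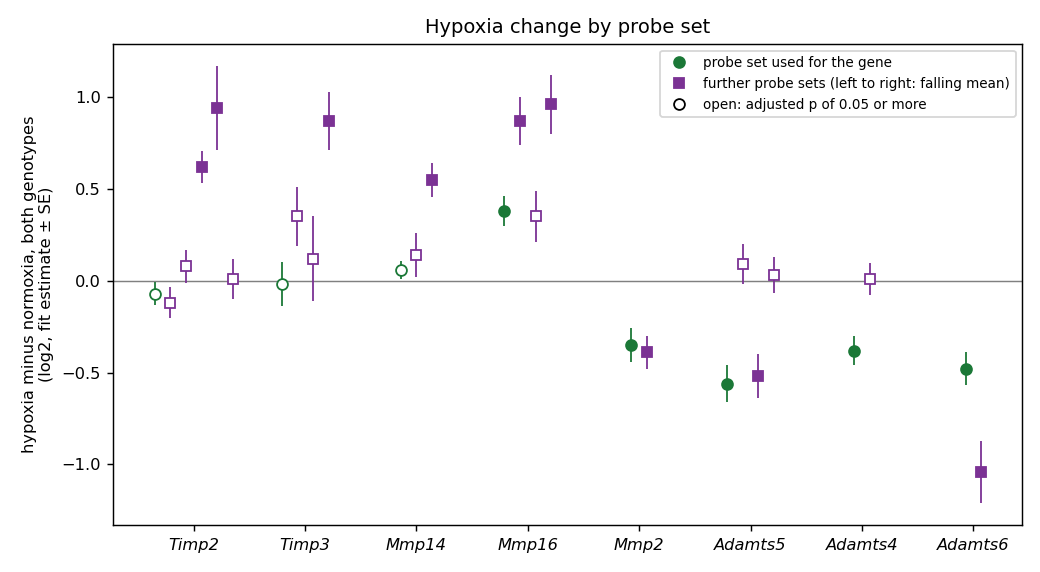
Hypoxia minus normoxia over both genotypes (y axis, log2, limma estimate ± SE) for every probe set of 8 members (x axis). Green circles are the probe sets used for the genes and purple squares the further ones, ordered from left to right by falling mean level; filled symbols have an adjusted p under 0.05, and the called further probe sets of Timp2, Timp3 and Mmp14 lie between 0.55 and 0.94, against -0.07, -0.02 and 0.06 for those used.

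The second question was what loss of Hif-p4h-1 changes. No member was called by limma in knockout against wild type, in normoxia (smallest adjusted p = 0.349), in hypoxia (0.679) or over both (0.0962), where 0.0366% (0.00733% higher), 0.0293% and 0.256% (0.0586% higher, 0.198% lower) of all genes were called. At an unadjusted p under 0.05 there were 6 of 33 members in normoxia, 5 in hypoxia and 11 over both, where 6.7%, 5.52% and 10.2% of all genes had one. Without wild-type normoxia replicate 2 alone, 2 members were called over both conditions, Adamts5 higher (0.65, adjusted p = 0.0413) and Mmp12 lower (-2.0, adjusted p = 0.0497).

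Mmp12 had the largest genotype estimate of the members. It read 4.93 and 6.90 in hypoxic knockout, against 7.15 and 7.92 in hypoxic wild type. In normoxia Mmp12 read 3.93 and 6.34 in knockout, against 6.65 and 7.03 in wild type. Knockout was lower in 4 of 4 pairs, with -1.02 in hypoxia and -0.69 in normoxia in the second set, and -2.22 and -2.72 in the first. The first-set knockout values are low, 3.93 lying under the filter limit of 4.17, so the size of the first-set differences is uncertain. The estimate was -1.66 ± 0.30 over both conditions and did not pass (adjusted p = 0.0962). Macrophages are the classical source of this enzyme, and 14 of 15 macrophage markers were lower in the knockout in all 4 pairs. Of these 15, 7 were called lower (median -1.26), but with the set as a random block, or with no block, 0% of all genes were called in this contrast, these markers included. Their summed level lay between 9.68 and 10.41 in knockout arrays, against 10.54 to 12.25 in wild-type arrays (log2). The sum of 9 skeletal muscle markers lay between 8.47 and 8.88 in knockout, against 11.22 and 11.48 in first-set and 8.75 and 8.82 in second-set wild type, and 2 of the 12 fibroblast markers were called lower in knockout. Between the sets the markers and Mmp12 went opposite ways: the markers had a median of -0.99 in the second set relative to the first, whereas Mmp12 was higher by 1.38 ± 0.30 (adjusted p = 0.00604). The part of such cells in the Mmp12 values was not tested, and in bulk RNA fewer cells of a type and less RNA per cell cannot be told apart.

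**Figure D4:**
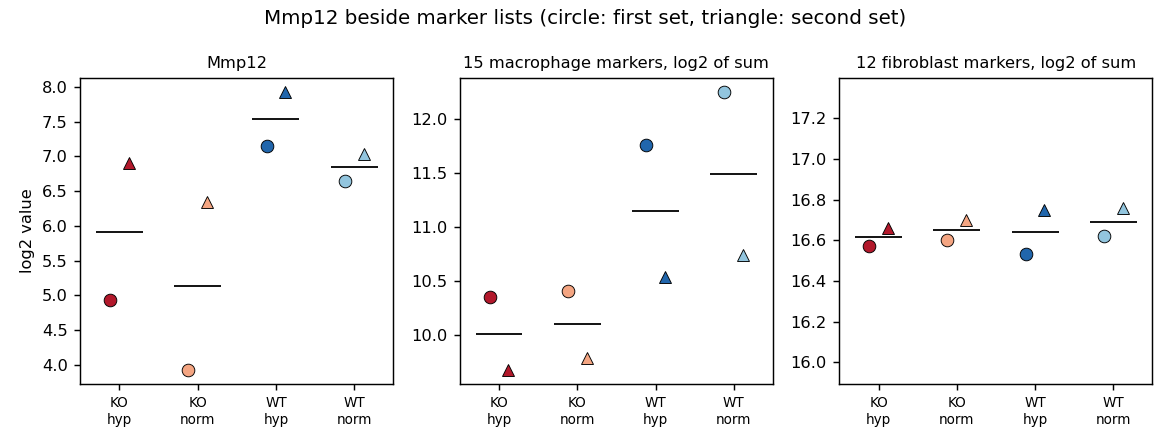
Log2 value of Mmp12 and log2 of the summed linear level of 15 macrophage and 12 fibroblast markers (y axes) by group (x axis). Circles are first-set and triangles second-set arrays, and bars the mean of the 2; within each set and condition both the macrophage sum and Mmp12 are lower in knockout, but in Mmp12 the second set is the higher one and in the markers the lower one, and the fibroblast sum stays between 16.53 and 16.76.

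Further estimates of the genotype difference were smaller. Adamts5 read higher in the knockout in 4 of 4 pairs (0.29 to 0.99, estimate 0.52 ± 0.10, adjusted p = 0.117), and a further 2 of its probe sets gave 0.50 and 0.54. Adamts1, Mmp2, Mmp16, Adamtsl3, Adamtsl4 and Timp2 also read higher in 4 of 4 pairs, with estimates of 0.28, 0.30, 0.30, 0.24, 0.34 and 0.14 (adjusted p = 0.306, 0.337, 0.229, 0.461, 0.361 and 0.513). Adamts4 (-0.18) and Adamts7 (-0.24) read lower in 4 of 4 (adjusted p = 0.474 and 0.488). How many of all genes read the same way in 4 of 4 pairs was not counted. Such agreement is therefore not taken as a genotype difference. Adamts3 encodes an enzyme that removes the N-terminal propeptide of procollagen. It was the only tested member whose knockout arrays all lay below its wild-type arrays (4.30 to 4.45, against 4.48 to 4.96). Of all genes, 0.799% did so (1.24% in either direction). The Adamts3 levels lie close to the filter limit of 4.17, and whether they exceed background was not measured. Its estimate was -0.34 ± 0.12 (adjusted p = 0.406). The weaker probe set of Adamts3, in which the genotypes overlapped, gave -0.11 (adjusted p = 0.869).

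More members were called between the sets than in any other contrast. In the second set 14 of the 33 were higher and 2 lower than in the first, a share of 48.5% against 46.1% of all genes (25.4% higher, 20.7% lower). Mmp19 had the largest difference: it read 6.61, 6.97, 7.09 and 7.27 in the second set (hypoxic knockout, normoxic knockout, hypoxic wild type and normoxic wild type), against 5.17, 5.05, 5.73 and 4.88 in the first. Its estimate was 1.78 ± 0.17 (adjusted p = 9.62e-05). Mmp12 followed at 1.38 ± 0.30 (adjusted p = 0.00604), then Adamts6 at 1.07 ± 0.089 and Mmp17, which is anchored by a lipid tail, at 1.03 ± 0.13 (adjusted p = 5.31e-05 and 4.06e-04). Timp1 was higher by 0.76 ± 0.089, Mmp14 by 0.58 ± 0.047 and Adamts12 by 0.73 ± 0.11. Mmp23 (0.76), Adamts4 (0.61), Adamtsl5 (0.49), Mmp11 (0.44), Adamtsl4 (0.43), Adamts10 (0.42) and Adamtsl3 (0.32) were higher too. Adamtsl3 was called in 2 and Adamtsl4 in 4 of the 8 fits without 1 array, while the other 14 were called in all 8.

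The members that were lower in the second set were Mmp3 and Adamts1. Mmp3 read 6.74, 6.43, 6.14 and 6.36 in the second set (groups in the same order), against 7.99, 7.08, 8.82 and 7.94 in the first, without overlap. Its estimate was -1.54 ± 0.27 (adjusted p = 0.00195), and Adamts1 had -0.37 ± 0.082 (adjusted p = 0.00659). Without overlap between the sets stood 10 members that were higher and 1 that was lower, beside 18.3% and 13.8% of all genes (32.1% in either direction). Timp2 (-0.08) and Mmp2 (-0.11) were not called.

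**Figure D5:**
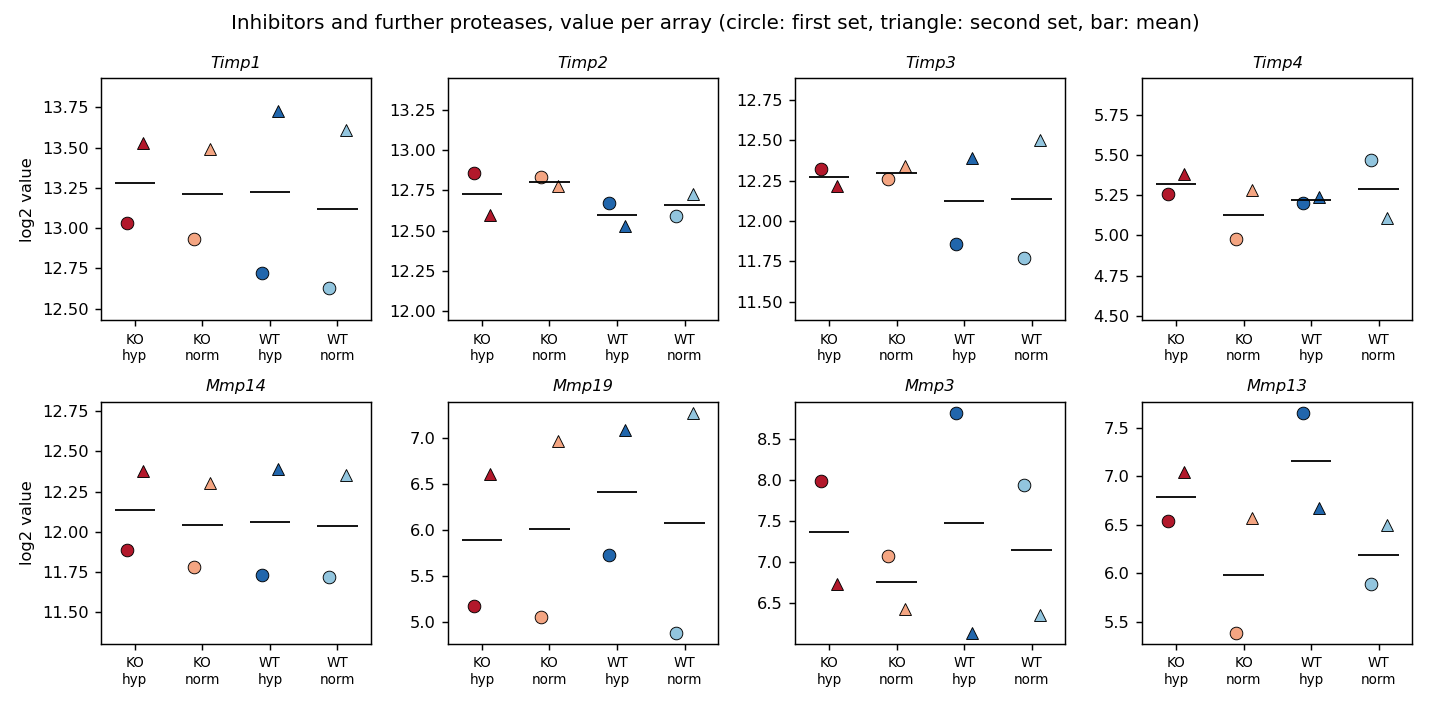
Log2 expression value (y axis) of the 4 Timp genes and 4 further proteases by group (x axis). Circles are first-set arrays, triangles second-set arrays and bars the mean of the 2; the sets lie apart in Timp1, Mmp14, Mmp19 and Mmp3, with Mmp3 lower in the second set, and hypoxia and normoxia lie close together in the Timp genes.

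The 9 members left out by the filter read between 2.60 and 5.21 in every array. They were Mmp1a, Mmp1b, Mmp7, Mmp8, Mmp20, Adamts15, Adamts18, Adamts19 and Adamts20. Adamts20, which acts on versican in developing skin, varied most among them. It read 4.0 and 3.09 in hypoxic knockout, 4.85 and 3.08 in normoxic knockout, 3.4 and 2.93 in hypoxic wild type and 5.21 and 3.41 in normoxic wild type, with the highest values in the normoxic arrays of the first set. Mmp8, the neutrophil collagenase, read 3.44 and 3.54 in hypoxic knockout and 3.89 and 3.94 in hypoxic wild type, against 3.17 and 3.44 in normoxic knockout and 3.25 and 3.45 in normoxic wild type. With no filter on low values 10 members were called in hypoxia over both genotypes, and the share of all genes in that fit is not given here. With each probe set tested on its own, 10 were called as well, Mmp8 (0.37, adjusted p = 0.021) and Adamts20 (-0.78, adjusted p = 0.0318) being those outside the 8 above. The members that passed and were called in no contrast were Timp2, Timp3, Timp4, Mmp9, Mmp13, Mmp24, Adamts3, Adamts7, Adamts8, Adamts9, Adamts16, Adamtsl1 and Adamtsl2.

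The genes that act with these proteases were followed in 6 lists over both genotypes. Of all genes tested, 28.7% were called in hypoxia over both genotypes (13.6% higher, 15.2% lower). The lists are small, and whether any of them differs from all genes was not tested. The list counts depend on how the set is treated: with no block 0 genes were called in 5 lists and 1 regulator in the other. In plasminogen activation, the serine protease cascade that can activate MMPs, 4 of 8 tested genes rose in hypoxia and none fell (median 0.14, against 0.01 over all genes). Serpinb2, an inhibitor of urokinase, rose by 1.16 ± 0.21 (adjusted p = 0.00533) and the C1 inhibitor Serping1 by 0.90 ± 0.13 (adjusted p = 0.00203). S100a10, a plasminogen receptor subunit, rose by 0.18 and Plat, the tissue activator, by 0.23 (adjusted p = 0.042 and 0.0463). Of 10 membrane ADAM proteases 4 fell and none rose (median -0.15): Adam23 (-0.38), Adam19 (-0.36), Adam22 (-0.33) and Adam12 (-0.23). Of 12 tested procollagen processing and other matrix-cleaving enzymes 2 rose and 3 fell (median -0.18). The serine proteases of the HtrA family moved apart, with Htra3 up by 1.08 (adjusted p = 4.07e-04) and Htra1 down (-0.68, adjusted p = 4.97e-04). Fap, the fibroblast activation protease, fell by 0.79 (adjusted p = 0.00693) and Pcolce2, an enhancer of procollagen cleavage, rose by 0.37 (adjusted p = 0.00476). Bmp1, which removes the C-terminal propeptide of procollagen, fell by 0.39 (adjusted p = 0.02).

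Among 18 tested regulators of matrix metalloproteinases 4 rose and 4 fell (median 0.04). Bsg, a surface inducer of MMPs, rose by 0.70 ± 0.063 (adjusted p = 2.91e-04), and Reck, a membrane-anchored inhibitor of MMPs, fell by 0.45 ± 0.066 (adjusted p = 0.002). The AP-1 subunits Fosl1, Jun and Fos went different ways. The other tested subunits, Fosl2 (0.05), Junb (0.04) and Jund (0.04), were not called (adjusted p = 0.713, 0.768 and 0.613). Fosl1 read 9.09 and 9.01 in hypoxic knockout and 9.05 and 9.16 in hypoxic wild type, against 8.47 and 8.42 in normoxic knockout and 8.33 and 8.31 in normoxic wild type. It rose by 0.69 ± 0.064 (adjusted p = 3.24e-04) and Jun by 0.29 ± 0.053 (adjusted p = 0.00556), whereas Fos fell by 0.52 ± 0.081 (adjusted p = 0.00256). Jun was called in wild type (0.43, adjusted p = 0.00926) but not in knockout (0.14, adjusted p = 0.264). Of 13 cathepsins and cystatins 2 rose and 2 fell (median 0.10), with the collagen-cutting Ctsk at -0.45 (adjusted p = 0.00157) and Ctso at -0.78 (adjusted p = 6.25e-04) lower and the aspartic protease Ctsd (0.38) and the inhibitor Cstb (0.16) higher. Of 15 tested protease substrates 4 fell and none rose (median -0.12), namely Fbn2, Bgn, Lama1 and Eln, with -0.49, -0.37, -0.50 and -0.55 (adjusted p = 7.64e-04, 0.00352, 0.0162 and 0.0418). With the set as a random block the counts of called genes were 2 for the substrates, 1 for the ADAM proteases, 2 for plasminogen activation, 3 for the cathepsins and cystatins, 4 for the matrix-cleaving enzymes and 6 for the regulators. The share of all genes in that fit is not given here. In knockout against wild type over both conditions, 4 genes of the lists were called, beside 0.256% of all genes. The count was 0 with the set as a random block, with no block or without the mean-variance trend. The cathepsin Ctss was lower (-1.60, adjusted p = 0.0396), as were Dcn (-0.51, adjusted p = 0.0225) and Fbn2 (-0.43, adjusted p = 0.0284), and Col2a1 was higher (0.74, adjusted p = 0.0125).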

How the data were processed

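Gene expression was measured on 8 one-colour arrays. The deposited table holds log2 values per probe set, made by the authors with RMA per the submitters' processing notes; biotin-labelled cRNA came from 5 ug of total RNA per the labels' protocols. RMA gives the arrays a common distribution, so a shared shift is not visible. The sources used here name no genome build. Of 45037 probe sets other than 64 controls, 34945 had 1 gene symbol in the platform annotation, 932 had several and 9160 were unnamed here; 34741 were updated by Entrez identifier through the RefSeq table.

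R 4.3.3 and limma 3.58.1 fitted a mean per group and the set to all 8 arrays (3 residual degrees of freedom, 5.22 from eBayes with trend). Genes below the 25th percentile of the mean were left out, and p-values were Benjamini-Hochberg adjusted over 13647 genes. The set differences of the 4 groups correlated at 0.71 to 0.85 across genes; the pairing comes from the mark on 4 titles. The number of arrays limits the precision. Levels of different probe sets are not compared as amounts. Genes were named by rule: members called in any contrast, all Timp genes, Mmp2, the 10 members of highest mean, and from each list up to 4 genes of smallest adjusted p or called by genotype, with Bnip3 and Egln2 as checks. Further genes, the pairs of probe sets described and the 4 genes of the chromosome 9 run were chosen after their values were seen. The members and lists were chosen with earlier results of these data known.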

Additional observations from a re-analysis of the deposited data

How the results depend on the processing

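The called differences of single members (8 for hypoxia over both genotypes, 5 in knockout, 4 in wild type and 16 between the sets) kept their direction under every alternative that could be run. Without the set in the fit, that is with no replicate block, no member was called in hypoxia over both genotypes, in knockout or in wild type (0 in each, against 8, 5 and 4). With the set as a random block (correlation 0.622) the knockout count was 0 and the wild-type count 2. In a fit of only the arrays compared they were 0 and 1, and without the mean-variance trend 2 and 2. The mean of all probe sets of a gene gave 3 in knockout. Leaving out 1 array gave 6 to 12 members over both genotypes, 0 to 6 in knockout, 0 to 4 in wild type, 14 to 17 between the sets, 0 to 2 for knockout against wild type over both conditions, and 0 in the other genotype contrasts and the interaction. The causes were not tested, though fits of fewer arrays have fewer degrees of freedom. The counts in this section stand without the share of all genes called in the same fits. They do not show whether the members lose or gain calls more than genes at large. Testing each probe set on its own, chosen after seeing the data, gave 10 members over both genotypes, 0 for knockout against wild type and 17 between the sets. The standard errors of Mmp13 in hypoxia (0.29) and of Mmp12 by genotype (0.30) limit what 2 arrays per group resolve for these genes.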
